A study of Mus musculus with 15 samples.

Results

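Polycomb binding was described at 4 regulators of blood and endothelial development, Kdr, Tal1, Gata2 and Runx1, in mouse E14Tg2A cells. The members were all called peaks of 5 ChIP-seq lists that lay in fixed mm9 windows, which were chr5:76310000-76400000 for Kdr, chr4:114710000-114760000 for Tal1, chr6:88120000-88170000 for Gata2 and chr16:92590000-92840000 for Runx1. The windows held 32 of the 30692 peaks in all 5 lists, of which the MES lists for Mel18, Cbx2, Ring1b and RYBP gave 5, 4, 5 and 8, and the ESC list for Mel18 gave 10. MES are early cardiac mesoderm precursors, made from E14Tg2A embryonic stem cells (ESCs) with BMP4, typically at 0.1 to 0.3 ng/ml. ESCs were kept undifferentiated in 2i medium with LIF. The cells of these 5 libraries carried no knockdown or knockout in their labels, all chromatin was precipitated with 5 ug of antibody, and 1 lot of Mel18 antibody served both states. Each list belonged to 1 sample, so no difference between lists has a replicate check, and read depth is unknown. No mm9 annotation was used here, so the gene positions could not be checked, and no peak is assigned to a promoter or exon. The cell types could not be checked against markers, because peak lists hold no expression values.

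Polycomb repressive complex 1 (PRC1) keeps developmental genes silent, in part by ubiquitinating histone H2A. Ring1b is its catalytic subunit, Mel18 (Pcgf2) a PCGF subunit, Cbx2 a chromodomain subunit of canonical PRC1 that reads methylated histone H3, and RYBP a subunit of variant PRC1. In mammals PRC1 tends to lie at CpG-rich promoters. Kdr encodes the VEGF receptor Flk1, which marks the mesoderm that gives rise to endothelium, blood and heart. Tal1 (Scl) is a basic helix-loop-helix factor needed for the first blood cells, Gata2 is a zinc finger factor of blood stem and progenitor cells and of endothelium, and Runx1 is the factor through which endothelium gives rise to blood stem cells. Runx1 is transcribed from a distal and a proximal promoter. In RefSeq's gene order the protein-coding neighbours are Kit and Srd5a3 for Kdr, Stil and Pdzk1ip1 for Tal1, Rpn1 and Dnajb8 for Gata2, and Clic6 and Setd4 for Runx1.

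The promoters of the 4 genes are shown first, since CpG content is a sequence feature known to go with Polycomb sites. RefSeq (GRCm38.p6) listed 7 promoters, 1 for Kdr and a pair, named here upstream and downstream, for each of the other genes. Over 32851 listed promoters the median was 6 CpG dinucleotides in the 250 bases before the start. The Kdr promoter held 16 CpG, more than 74.6% of all promoters. The Tal1 downstream promoter also held 16, and the Gata2 downstream promoter held 24, more than 88.0% of all. The Runx1 promoters stood at opposite ends, with 27 CpG in the downstream promoter, more than 91.4% of all, and 2 in the upstream promoter, more than 18.8% of all. The other promoters held 6 CpG (Tal1 upstream) and 22 CpG (Gata2 upstream). These sequences belong to another build than the peaks, so they describe the genes and do not place a peak. They are written 5′ to 3′ on the gene's strand, with each CpG in capitals:
Kdr: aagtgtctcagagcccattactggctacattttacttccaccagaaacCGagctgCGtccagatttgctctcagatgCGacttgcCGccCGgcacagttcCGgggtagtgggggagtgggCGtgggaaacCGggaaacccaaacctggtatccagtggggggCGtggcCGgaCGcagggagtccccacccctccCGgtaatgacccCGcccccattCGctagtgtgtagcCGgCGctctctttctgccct
Tal1 downstream: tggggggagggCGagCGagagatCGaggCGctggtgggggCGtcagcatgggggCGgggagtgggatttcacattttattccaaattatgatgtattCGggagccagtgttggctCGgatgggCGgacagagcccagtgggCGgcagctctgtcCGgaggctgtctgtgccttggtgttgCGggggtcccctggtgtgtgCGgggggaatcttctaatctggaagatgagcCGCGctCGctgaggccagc
Gata2 downstream: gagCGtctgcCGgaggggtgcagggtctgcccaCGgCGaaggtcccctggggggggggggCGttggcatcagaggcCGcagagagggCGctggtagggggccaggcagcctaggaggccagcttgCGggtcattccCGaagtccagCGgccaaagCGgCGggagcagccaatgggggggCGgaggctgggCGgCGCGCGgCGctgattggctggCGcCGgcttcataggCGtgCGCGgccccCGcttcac
Runx1 upstream: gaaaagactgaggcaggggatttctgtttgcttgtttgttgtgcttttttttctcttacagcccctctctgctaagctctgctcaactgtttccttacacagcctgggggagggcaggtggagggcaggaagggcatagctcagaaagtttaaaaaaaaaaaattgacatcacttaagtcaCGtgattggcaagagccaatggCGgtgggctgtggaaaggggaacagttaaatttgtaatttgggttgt
Runx1 downstream: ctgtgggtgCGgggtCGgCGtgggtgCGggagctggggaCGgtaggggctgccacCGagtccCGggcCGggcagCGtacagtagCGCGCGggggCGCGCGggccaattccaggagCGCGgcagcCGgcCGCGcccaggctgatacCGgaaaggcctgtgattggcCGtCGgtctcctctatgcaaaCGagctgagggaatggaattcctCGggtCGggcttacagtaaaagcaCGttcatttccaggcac

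**Figure D1:**
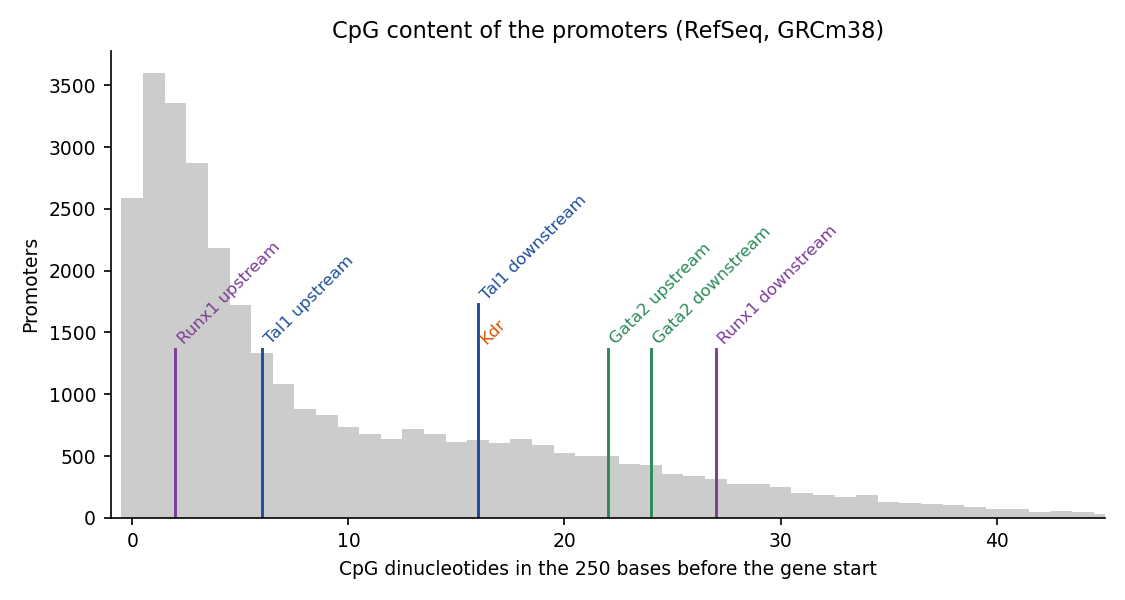
Number of CpG dinucleotides in the 250 bases before the gene start (x axis, drawn to 45) against the number of RefSeq promoters (y axis, grey bars), with coloured lines for the promoters of the 4 genes. Kdr and Tal1 downstream share a line at 16, the Runx1 pair stands at 2 and 27, and the median of all promoters is 6.

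GATAA, the core of the site read by GATA factors, was found once, in the Tal1 upstream promoter, when both strands of the 7 promoters were searched, and 22.6% of all promoters hold it. TGTGGT, a core of the site read by Runx factors, was not in any of the 7, and 14.0% of all promoters hold it.

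Mel18 peaks lay at all 4 genes in both cell states. Peaks of the 5 lists that touched each other were joined, which gave 12154 merged regions in the genome and 6 in the windows. Each gene had 1 main region with Mel18 in MES and in ESCs, which 20.9% of all merged regions have. The Tal1, Gata2 and Runx1 regions had peaks of all 5 lists, so 3 of the 6 regions did, against 15.7% of all merged regions. These 3 were longer than 94.4, 96.3 and 84.5% of the regions with all 5 lists. The shares of 20.9 and 15.7% were not matched for length. The Kdr region had peaks of 4 lists and no RYBP peak. The other 2 regions were small sites in the Runx1 window. Of the MES Mel18 peaks, 4 of 5 overlapped an ESC Mel18 peak (66.3% of the whole list), and of the ESC Mel18 peaks 9 of 10 overlapped a MES Mel18 peak (52.6% of the whole list). Cbx2 peaks overlapped all 5 of the MES Mel18 peaks, Ring1b peaks 4 and RYBP peaks 3, where the whole-list shares are 73.3, 81.2 and 72.4%. The 9 ESC Mel18 peaks lay in the 4 main regions, several under a single MES Mel18 peak at Tal1 and at Gata2. They are therefore not 9 separate sites, and with peaks of a list within 1 kb joined, 7 of 8 overlapped. With so few peaks these counts describe the 4 genes only.

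**Figure D2:**
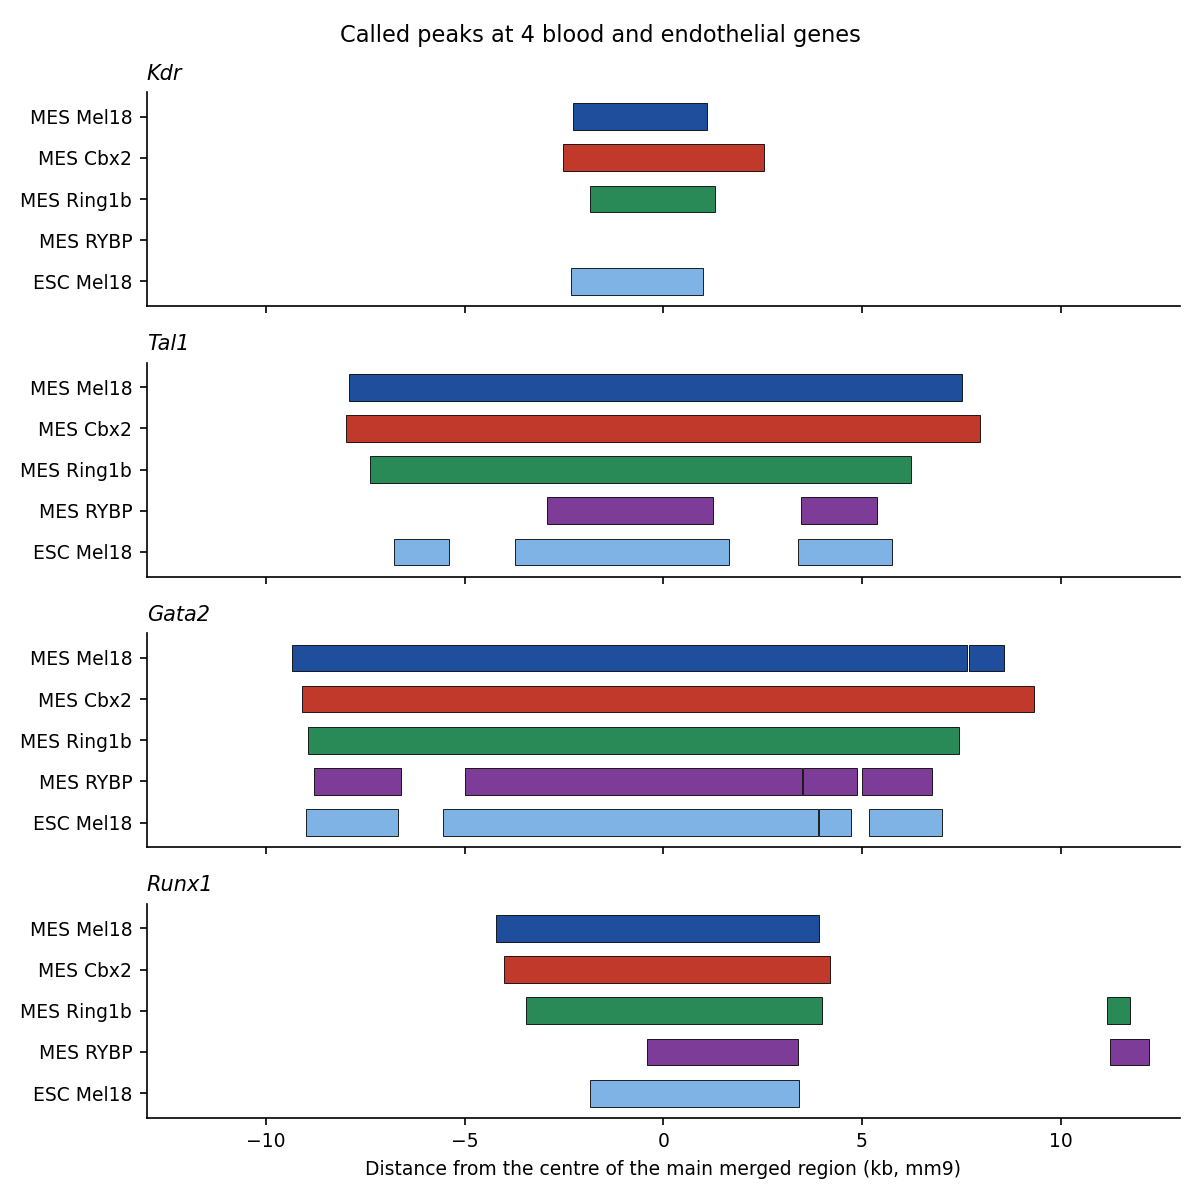
Called peaks (boxes) of the MES lists and, below them, ESC Mel18 at each gene, by distance in kb from the centre of the main merged region. The MES Mel18, Cbx2 and Ring1b peaks run on over Tal1 and Gata2 where ESC Mel18 and MES RYBP are split, Kdr has no RYBP box, and the ESC Mel18 peak at the far edge of the Runx1 window lies outside the range drawn.

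At Kdr, the receptor gene, Mel18 occupied nearly the same stretch in both states, and RYBP had no peak. The MES Mel18 peak was 3377 bp (chr5:76372272-76375648), and the ESC Mel18 peak was 3322 bp (chr5:76372216-76375537). Their edges differed by 56 bp on the left and 111 bp on the right, and 98.3% of the ESC Mel18 bases lay in the MES peak. MES covered 1.02 times the ESC length, a ratio higher than that of 26.8% of the 2540 regions with Mel18 in both states, whose median is 1.24. The ratio was higher at each of the other genes.

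Cbx2 reached furthest at Kdr. Its peak was 5050 bp (chr5:76372025-76377074) and ran 1426 bp beyond the right edge of MES Mel18, and it was 1.495 times as long as MES Mel18, against a median of 1.12 in 2107 regions with Cbx2 and Mel18 in both states. The Ring1b peak was 3161 bp (chr5:76372699-76375859) and covered 87.4% of the MES Mel18 bases. Of 2064 merged regions with Mel18 in both states, Cbx2 and Ring1b, 153 had no RYBP peak (7.41%), and Kdr is one of them. These 153 make up 1.26% of all merged regions. The closest RYBP peaks lay 337.5 kb before and 212.3 kb after the Kdr window. A missing peak means that none was called, and RYBP signal below the caller's threshold was not analysed here.

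The authors' score, whose scale is not stated, ranked the Kdr peaks below the main peaks of the other genes. The MES Mel18 peak at Kdr scored 244, above 60.7% of its list, and the ESC Mel18 peak scored 1182, above 87.5% of its list. Cbx2 scored 408 and Ring1b 263 there, above 70.6 and 76.2% of their lists. Ranks from lists of different length show no change between states.

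At Tal1, the blood-forming factor, MES Mel18 lay in a single peak of 15439 bp (chr4:114723608-114739046), whereas ESC Mel18 lay in 3 peaks. The ESC peaks measured 1386 bp (chr4:114724729-114726114), 5405 bp (chr4:114727775-114733179) and 2366 bp (chr4:114734907-114737272). All 9157 bases of ESC Mel18 were inside the MES peak, which also covered the gaps of 1660 and 1727 bp between the ESC peaks. The MES peak reached 1121 bp further to the left and 1774 bp further to the right. MES Mel18 covered 1.69 times the ESC length, a higher ratio than in 78.8% of regions with Mel18 in both states.

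Cbx2 and Ring1b each had a single peak at Tal1, as MES Mel18 did, whereas RYBP was split, though into fewer peaks than ESC Mel18. The Cbx2 peak was 15967 bp (chr4:114723535-114739501) and covered all MES Mel18 bases, and the Ring1b peak was 13620 bp (chr4:114724143-114737762) and covered 88.2% of them. RYBP had 2 peaks, of 4178 bp (chr4:114728594-114732771) and 1907 bp (chr4:114734995-114736901), which covered 39.4% of the MES Mel18 bases. The median of that share over the 1911 regions with all 5 lists is 66.0%, and 9.47% of them are below Tal1. In the longest 25% of these regions, to which Tal1 belongs, the median is 56.9%, and 17.4% are below Tal1. RYBP covered none of the gaps between the ESC Mel18 peaks, and the ESC Mel18 peak furthest to the left was the one of the 3 with no RYBP peak on it. The MES Mel18, Cbx2 and Ring1b peaks all scored 3100, at which scores pile up in these lists, and so did the middle ESC Mel18 peak. The RYBP peaks scored 338 and 156, above 86.2 and 60.6% of their list, in which no peak reaches 3100.

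At Gata2, the factor of blood progenitors, the Polycomb region was the longest of the 4, at 18686 bp (chr6:88138785-88157470), longer than 96.3% of the regions with all 5 lists. MES Mel18 had a peak of 16994 bp (chr6:88138785-88155778) and, 37 bp further on, one of 884 bp (chr6:88155816-88156699). That small peak was the only MES Mel18 peak in the 4 windows without ESC Mel18, it scored 81, and Cbx2 was the single other list that overlapped it. ESC Mel18 had 4 peaks, of 2317 bp (chr6:88139142-88141458), 9438 bp (chr6:88142595-88152032), 809 bp (chr6:88152056-88152864) and 1838 bp (chr6:88153295-88155132). MES Mel18 covered all 14402 ESC bases and the 3 gaps of 1136, 23 and 430 bp between them. It covered 17878 bp, 1.24 times the ESC length, a ratio close to the median of all regions.

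RYBP also had 4 peaks at Gata2, which covered nearly the same bases as ESC Mel18. They measured 2185 bp (chr6:88139333-88141517), 8481 bp (chr6:88143143-88151623), 1356 bp (chr6:88151641-88152996) and 1758 bp (chr6:88153132-88154889). The count rests on gaps of 17 and 135 bp between RYBP peaks and of 23 and 430 bp between ESC Mel18 peaks, and both lists have 2 peaks when peaks within 1 kb are joined. RYBP also has 2 in the higher-scoring 50% of its list, since the peaks of 1356 and 1758 bp scored 67.9 and 110. The 8481 bp peak was the 23rd widest of 7614 RYBP peaks. RYBP covered 77.1% of the MES Mel18 bases, a larger share than at Tal1 or Runx1. Cbx2 had 1 peak of 18439 bp (chr6:88139032-88157470), which ran 771 bp past the right edge of MES Mel18, and Ring1b had 1 of 16376 bp (chr6:88139195-88155570). The widest MES Mel18 peak, the Cbx2 peak, the Ring1b peak and the widest ESC Mel18 peak all scored 3100. The highest RYBP score was 612, above 95.9% of its list.

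At Runx1, the factor of blood stem cell emergence, the peaks in the 250 kb window lay in a main region of 8397 bp (chr16:92692960-92701356) and at 2 small sites. MES Mel18 had 1 peak of 8117 bp (chr16:92692960-92701076) there, and ESC Mel18 had 1 peak of 5245 bp (chr16:92695324-92700568), which lay wholly inside it. The MES peak ran 2364 bp further on the left and 508 bp further on the right, so the added length was mostly on 1 side. MES covered 1.55 times the ESC length in this region, higher than in 72.1% of regions with Mel18 in both states, and 1.35 times in the whole window, where ESC Mel18 had a second site.

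Cbx2 covered 8197 bp (chr16:92693160-92701356) and Ring1b 7454 bp (chr16:92693700-92701153) of the main Runx1 region. RYBP covered 3795 bp (chr16:92696761-92700555), which was 46.8% of the MES Mel18 bases, and it began 3801 bp inside the left edge of MES Mel18 and ended 521 bp inside the right one. The RYBP and ESC Mel18 peaks ended within 13 bp of each other. The Cbx2 peak scored 3134, the 4th highest of 3679, and MES Mel18 scored 3100. Ring1b scored 2576, RYBP 155 and ESC Mel18 1996, above 96.1, 60.4 and 92.4% of their lists.

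The small Runx1 sites each lacked Mel18 in at least 1 state. An ESC Mel18 peak of 759 bp (chr16:92605707-92606465), with a score of 223, overlapped no MES peak of any subunit, a class that makes up 13.9% of all merged regions. A Ring1b peak of 590 bp (chr16:92708327-92708916) and a RYBP peak of 1001 bp (chr16:92708392-92709392) overlapped each other with no Mel18 or Cbx2, as in 12.9% of all merged regions. That Ring1b peak scored 50.9, above 1.71% of its list, close to the lowest score listed.

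The lists kept the same order of covered length at the 3 genes with all 5 lists, with Cbx2 longest and RYBP shortest in the main region. Over the regions with all 5 lists, Cbx2 was the longest in 66.2% and RYBP the shortest in 54.5%, so both ends of this order are common. Cbx2 was only 1.03, 1.03 and 1.01 times as long as MES Mel18 at Tal1, Gata2 and Runx1. The median of that ratio over these regions was 1.12. Over the 4 windows together MES Mel18 covered 44811 bp, Cbx2 47653 bp, Ring1b 41201 bp, RYBP 24661 bp and ESC Mel18 32885 bp. RYBP thus covered 0.75 times the ESC Mel18 length in the windows, with no peak at Kdr, and its whole list covers 1.21 times the length of the ESC Mel18 list. MES Mel18 covered 1.36 times the ESC Mel18 length in the windows and 1.11 times over the whole lists. The whole lists include sites that the other lists lack, so they are not a like comparison. In the regions with all 5 lists the median RYBP length was 0.70 times that of MES Mel18, so a shorter RYBP is common at shared sites.

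**Figure D3:**
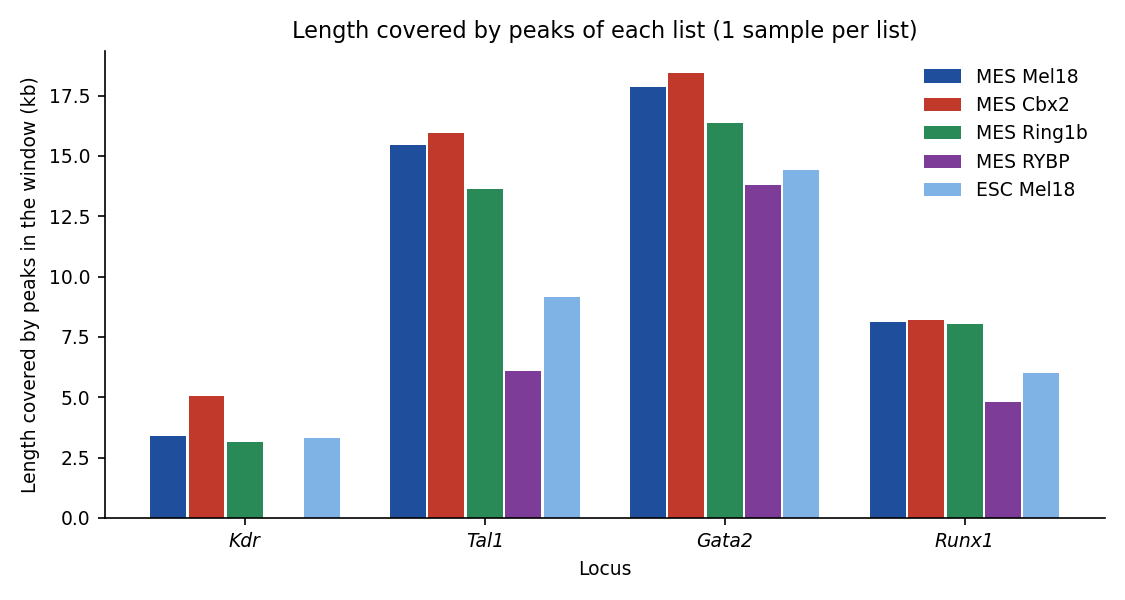
Length covered by peaks in each window (y axis, kb) for the 4 MES lists and ESC Mel18 (bars), with 1 sample per list and no error. The bars of MES Mel18, Cbx2 and Ring1b stand above that of ESC Mel18 at Tal1, Gata2 and Runx1, whereas RYBP is the lowest there and has 0 bp at Kdr.

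**Figure D4:**
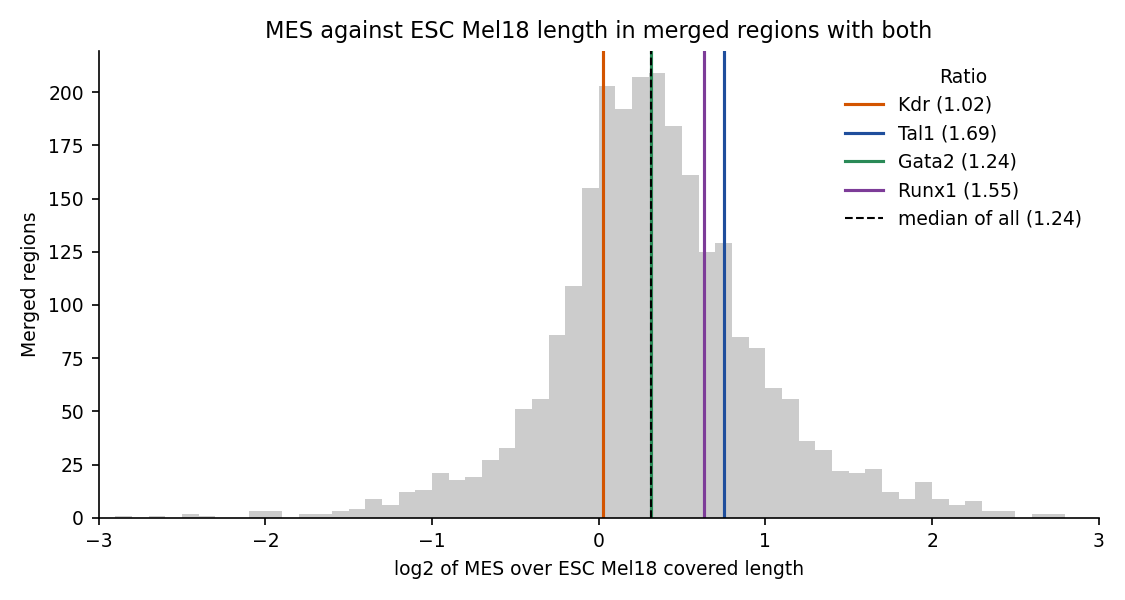
Histogram of the log2 ratio of MES to ESC Mel18 covered length in 2540 merged regions with both (x axis, drawn to 3 log2 units on either side of 0) against the number of regions (y axis), with lines for the main regions of the 4 genes. Kdr lies at a ratio of 1.02, Gata2 at 1.24 on the median of all regions, Runx1 at 1.55 and Tal1 at 1.69.

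MES Mel18 was longer than ESC Mel18 in 4 of 4 main regions, and in 74.9% of all regions with Mel18 in both states, so the direction is the common one. The sizes spread widely between the genes, from 1.02 at Kdr to 1.69 at Tal1. In the longest 25% of the regions with all 5 lists the median ratio was 1.38, and the middle 80% ran from 1.08 to 2.38. Kdr fell below that range, but its main region of 5050 bp was shorter than the 6018 bp at which that group begins. ESC Mel18 had more peaks than MES Mel18 at Tal1 and Gata2, which 24.2% of the regions with all 5 lists show. Both genes belong to the longest 25% of these regions, where the median was 2 ESC Mel18 peaks and 1 MES Mel18 peak. Several ESC Mel18 peaks are thus usual at that length.

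RYBP peaks were less like MES Mel18 than ESC Mel18 in extent at Tal1, Gata2 and Runx1. Likeness was measured as the bases that both lists cover over the bases that either covers. It was 0.394 with MES Mel18 and 0.665 with ESC Mel18 at Tal1. At Gata2 it was 0.771 with MES Mel18 and 0.907 with ESC Mel18, and at Runx1 0.468 with MES Mel18 and 0.724 with ESC Mel18. Among the regions with all 5 lists, 68.6% lean the same way, with medians of 0.618 with MES Mel18 and 0.712 with ESC Mel18. The value with ESC Mel18 was higher than in 90.9% of those regions at Gata2, but than in only 40.5% at Tal1 and 53.0% at Runx1. In the main regions of the 3 genes every RYBP base lay inside MES Mel18, so the value with MES Mel18 is the ratio of their lengths and says no more than the covered lengths above. The same holds for the value with ESC Mel18 at Tal1 and Runx1, where every RYBP base also lay inside ESC Mel18. At these genes ESC Mel18 lay wholly inside MES Mel18, so its shorter length alone fixed which value was higher. These values compare different antibodies in different cell states.

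**Figure D5:**
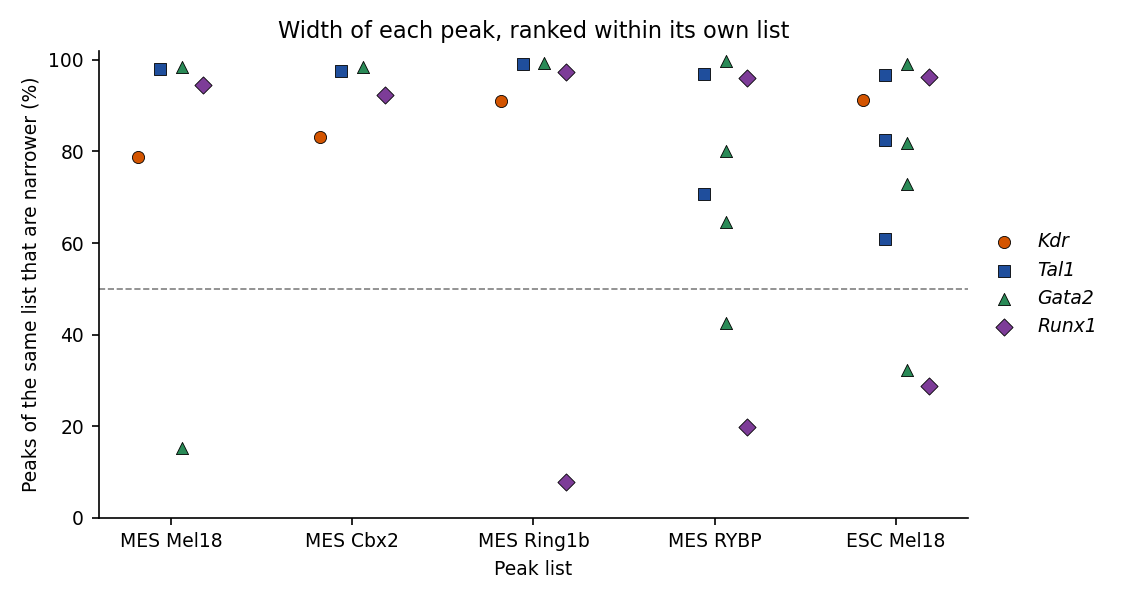
Width of each of the 32 peaks as the share of peaks of the same list that are narrower (y axis, percent), by list (x axis) and gene (symbol), with the dashed line at the list's middle. The main peaks of Tal1, Gata2 and Runx1 stand above 90% in each list, Kdr lies between 78.9 and 91.3%, and the lowest points are the small sites beside Gata2 and in the Runx1 window.

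The peaks were wide for their lists. The median MES Mel18 peak in the windows was 8117 bp wide, against 1855 bp in the whole list. The median Cbx2 peak was 12082 bp wide in the windows (2508 bp in its list) and the median Ring1b peak 7454 bp (1178 bp). The gap was smaller for RYBP, at 2046 bp (1476 bp), and for ESC Mel18, at 2342 bp (1103 bp). These 2 lists were split into several peaks at Tal1 and Gata2, and the short pieces enter their medians. Their widest peaks at Tal1, Gata2 and Runx1 were each wider than 96.0% or more of their lists. Among the widest 10% of their lists were 3 of 5 MES Mel18 peaks, 3 of 4 Cbx2, 4 of 5 Ring1b, 3 of 8 RYBP and 4 of 10 ESC Mel18 peaks. The peaks at the score of 3100 or above numbered 3 of MES Mel18, 3 of Cbx2, 2 of Ring1b and 2 of ESC Mel18, and those scores are held by 8.98, 9.05, 3.43 and 4.6% of these lists.

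The windows' edges decided little. The closest peak of each list outside the windows lay at least 46.2 kb away, except a RYBP peak 13.5 kb after the Gata2 window (chr6:88183480-88184302), with a score of 64.9. Inside the windows the member closest to an edge was the end of the Gata2 Cbx2 peak, 12530 bp from it.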

How the data were processed

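Peak lists of 5 ChIP-seq samples were used, of 15 samples in the series. The other 10 samples (MES IgG and 9 RNA-seq libraries) were not analysed here. Each deposited list gave chromosome, start, end, a name with the tag of the MACS caller and 1 score per peak, the authors' own value, whose scale was not stated. Scores started at 50 and piled up at 3100 in 4 lists. They are given as listed, and only their ranks within a list can be read, not differences between lists. Reads were placed on mm9, and Bowtie and TopHat were named, per the submitters' processing notes. The sources used here did not give the caller's settings, its control or any pooling.

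Starts were converted to count from 1. A peak was a member when it overlapped a window by 1 bp, and covered length was clipped to the window. Merged regions joined peaks of all lists that overlapped. Every merged region in the windows was described, and single peaks by the rule that they were widest, highest-scoring or in 1 Mel18 list alone. The remaining peaks are given to account for every member. Values over all merged regions are the background. No test was made between lists of 1 sample. The genes, windows and measures were chosen with earlier results of these data known, and the likeness of RYBP to Mel18, the longest 25% of regions and the promoter motifs were added after the values were seen. A list of other blood and endothelial genes was not used, for want of mm9 positions. CpG and motifs were counted in the 250 bases before each start listed by RefSeq (GRCm38.p6), and all 4 symbols matched. Overlaps were tested on simulated data and checked against bedtools 2.31.1 for 20 ordered pairs, and 0 peaks differed. Python 3.11.15, numpy 2.4.6, pandas 2.3.3 and matplotlib 3.10.9 were used.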

Additional observations from a re-analysis of the deposited data

How the results depend on the processing

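No paired analysis was possible because each list came from 1 sample. The settings tried were the higher-scoring 50% of every list, lists cut to 3679 peaks and windows widened by 50 kb. Under each setting the numbers of peaks, the covered length per list over all windows and the MES to ESC Mel18 ratios were recomputed. Counts of overlaps and of merged regions with every list were also recomputed. The likeness of RYBP to Mel18, the shares of bases covered by another list and the Cbx2 to Mel18 ratio were not recomputed. Neither were the covered lengths at single genes, their order or the ranks by width. Joining of peaks within 1 kb was applied to the counts of peaks, overlaps and merged regions, and an overlap of 50% of the shorter peak to the counts of overlaps. Of 156 recomputed values, 146 stayed within 1.5 times the reported one, and no ratio of MES to ESC Mel18 length changed direction. The other 10 were numbers of peaks at single genes. Some values could not move under a setting, since the Cbx2 list already held 3679 peaks and Kdr had no RYBP peak to remove or join. Lists cut to 3679 peaks kept every Mel18 peak of the windows, so the MES to ESC Mel18 ratios were unchanged there. The higher-scoring 50% moved only the Gata2 ratio, to 1.25. Their unchanged direction under these cuts therefore says little. With peaks within 1 kb joined, Gata2 had 1 MES Mel18, 2 RYBP and 2 ESC Mel18 peaks. With the higher-scoring 50% Gata2 had 1 MES Mel18 and 2 RYBP peaks and Runx1 had 1 Ring1b peak, and with 3679 peaks per list Gata2 had 2 RYBP peaks and Runx1 had 1 Ring1b peak. In widened windows Tal1 had 2 MES Mel18 and 2 Ring1b peaks, and its ratio was 1.79, since a MES Mel18 peak of 929 bp came in. The alternatives cannot stand in for replicates or read depth, which limit every comparison of list with list: a gap between peaks, or the missing RYBP peak at Kdr, shows only that nothing was called.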

Other observations

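Outside the Kdr window, the closest MES peaks before it lay at 1 site, with MES Mel18 at chr5:75970246-75973209 (2964 bp), Cbx2 at chr5:75969657-75973237, Ring1b at chr5:75970365-75972858 and RYBP at chr5:75970305-75972478. ESC Mel18 had no peak there, and its closest peak before the window lay 757.1 kb away. This site therefore had RYBP and no ESC Mel18 peak, whereas the Kdr site had ESC Mel18 and no RYBP peak. In the other direction the closest MES Mel18 peak lay 334.1 kb after the window.

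Before the Runx1 window all 5 lists had a peak within 89.6 to 90.2 kb of its edge, with MES Mel18 at chr16:92497947-92500353 and ESC Mel18 at chr16:92498333-92500028. Before the Tal1 window Ring1b (chr4:114659102-114660322) and RYBP (chr4:114659006-114660598) had overlapping peaks, and the closest Mel18 peaks lay further off, at 109.8 kb in MES and 110.5 kb in ESCs. These sites belong to no gene here, since no mm9 annotation was used.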
